A study of Xenopus tropicalis with 45 samples.

Results

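The foxi ectoderm genes described here are foxi1, foxi4.1 and foxi4.2 of *Xenopus tropicalis*. They were taken by name from the gene tables, and all 3 were present among the 28850 genes measured. RNA was measured in animal cap (AC) explants, the presumptive ectoderm, and in vegetal mass (VG) explants, the presumptive endoderm, of wildtype embryos. Exposure began at the 4-cell stage, to 100 nM Trichostatin A (TSA) or DMSO in the TSA experiment and to 10 mM valproic acid (VPA) or water in the VPA experiment. Explants were cut at the late blastula stage and collected at the early gastrula stage (st10.5), with 2 libraries in each of the 8 groups. TSA and VPA both inhibit histone deacetylases (HDACs) but do so on more than one member of that enzyme family, so neither agent is specific to Hdac1. Of the 13 peak lists, 11 come from whole wildtype embryos, 4 of them Hdac1 lists from embryos given DMSO or 100 nM TSA and the others from untreated embryos, and hold Hdac1, Hdac2, Sox3 or pan-H3Kac (histone H3 acetylated on several lysines) between st8 and st10.5, and 2 hold pan-H3Kac of AC and of VG given DMSO.

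Forkhead box (Fox) proteins are transcription factors that bind DNA through a winged-helix domain. In the *Xenopus* blastula the maternal factor Foxi2 activates *foxi1*, also called *foxI1e* or *Xema*, in the animal region of the embryo, and foxi1 then drives ectoderm formation and holds back mesendoderm genes there. In vertebrates *foxi1* is also known for its role in ionocytes, the ion-transporting cells of the *Xenopus* epidermis and of the mammalian kidney and inner ear. *foxi4.2*, also called *Xfoxi1a*, acts in ventral ectoderm, and *foxi4.1*, also called *foxI1c*, is its close neighbour on the chromosome. In the v10.0 genome *foxi1* lies at chr3:32477798-32480125, *foxi4.2* at chr1:18302343-18304330 and *foxi4.1* at chr1:18321740-18327133. The gap between the foxi4 genes is 17410 bp with no other annotated gene in it, and the gene nearest to *foxi1* is *dock2*, 17937 bp away. The annotation used gives the span of each gene without its strand, so ends are named below by their coordinates.

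The study designed a primer pair for the *foxi4.2* promoter, the one regulatory sequence of these genes that the sources used here hold. Both primers are printed because peaks of Hdac1 and Sox3 near *foxi4.2* are described below. Each is 20 bases long, and their position within the locus was not looked up, since no genome sequence was used.
foxi4.2 promoter, forward: agggtaacggtgcgcacaca
foxi4.2 promoter, reverse: gcagtgccagacaggggaag

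The RNA libraries held 16892304 to 54350327 counts. Ribosomal RNA genes took 35.0% of the counts in replicate 2 of AC DMSO and 39.4% in replicate 2 of AC TSA, against 0.730% to 4.38% in the other 14 libraries, so these libraries stand apart. Explant identity was checked on markers that include no foxi gene. The summed level of 7 ectoderm markers was 1653 to 2508 TPM (a level normalised for gene length and library depth) in AC DMSO and 524 to 703 TPM in VG DMSO, where *dlx3* was listed at 0 in both libraries. TPM is a share of the RNA of all genes, so the ribosomal RNA of the 2 libraries above lowers the TPM of their other genes. Most of the VG sum was *klf17*, which did not differ between AC and VG past the threshold, and without it the sum of the other 6 was 1200 to 1826 TPM in AC DMSO and 54.3 to 62.0 TPM in VG DMSO. The summed level of 9 endoderm markers was 104 to 108 TPM in AC DMSO and 6862 to 7067 TPM in VG DMSO. With TSA in AC, the ectoderm sum was 474 to 1010 TPM, or 320 to 721 TPM without *klf17*. The endoderm sum was 239 to 440 TPM, and the sum of 6 mesoderm markers 94.6 to 157 TPM against 25.8 to 34.6 TPM in AC DMSO. These sums hide differences between markers. Past the threshold, 3 of the 7 ectoderm markers fell, 0 rose and 4 were not called. Of the 9 endoderm markers 1 rose and 0 fell, and of the 6 mesoderm markers 1 rose and 1 fell. Of all genes, 1.29% rose and 1.00% fell. With VPA in AC, the ectoderm sum was 773 to 949 TPM against 1809 to 2295 TPM with water. Without *klf17* it was 559 to 664 TPM against 1332 to 1548 TPM. The endoderm sum was 117 to 325 TPM against 53.3 to 63.5 TPM. The mesoderm sum was 28.1 to 133 TPM against 12.6 to 21.7 TPM. Past the threshold, 4 of the 7 ectoderm markers fell, 0 rose and 3 were not called. Of the 9 endoderm markers 1 rose and 0 fell, and of the 6 mesoderm markers 0 rose and 0 fell. Of all genes, 1.36% rose and 0.745% fell. The marker sums moved with the inhibitors in the same libraries as the foxi genes, and their part in the foxi results was not tested. In bulk explants, fewer cells that express a gene and less RNA per cell cannot be told apart. The study's methods call the replicates independent biological ones, without saying whether they came from separate clutches.

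*foxi4.2* was by far the most abundant of the 3 genes. In AC its level was 1204 and 792 TPM with DMSO and 1029 and 926 TPM with water, which placed it between rank 84 and 87 of all genes in the DMSO libraries. *foxi1* was at 66.7 and 31.3 TPM in AC DMSO and at 138 and 39.4 TPM in AC water. *foxi4.1* was at 9.51 and 11.7 TPM in AC DMSO and at 2.79 and 12 TPM in AC water. The order *foxi4.2*, *foxi1*, *foxi4.1* held in each of these 4 control AC libraries, and *foxi4.2* supplied 87.9% to 94.9% of the summed foxi level in them. All 48 values of the 3 genes were whole numbers of expected counts as written to 2 decimals, so the estimates show no read divided between the foxi4 copies.

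**Figure D1:**
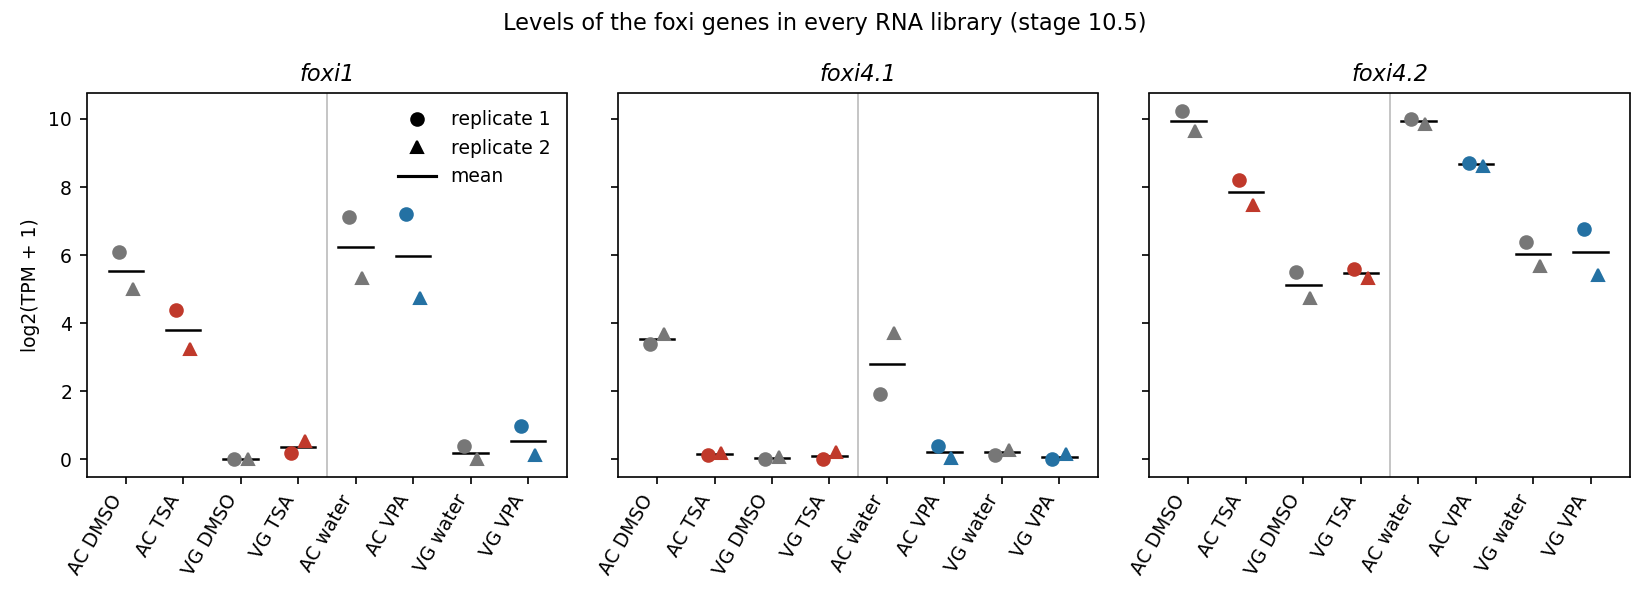
Level of each foxi gene as log2(TPM + 1) on the vertical axis in the 16 RNA libraries, by tissue and treatment on the horizontal axis; circles are replicate 1, triangles replicate 2, and bars the mean of 2 libraries, with controls in grey, TSA in red and VPA in blue. *foxi4.1* lies close to its VG level in AC treated with either inhibitor, *foxi4.2* lies between control AC and VG there, and *foxi1* is higher in replicate 1 than in replicate 2 in all 4 AC groups.

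Replicates of *foxi1* were far apart. In TPM, replicate 1 was 2.13 times replicate 2 in AC DMSO, 2.33 times in AC TSA, 3.51 times in AC water and 5.66 times in AC VPA. The first 2 of these ratios are raised by the ribosomal RNA of replicate 2 and were not corrected for it. In the VPA experiment the biological coefficient of variation of *foxi1*, the spread that remains after counting error, was 0.883, above that of 97.2% of the genes tested. *foxi4.1* also varied in that experiment, with a coefficient of 0.759 (95.5% of genes were at or below it), whereas *foxi4.2* had 0.328. In the TSA experiment the coefficients were 0.392 for *foxi1*, 0.498 for *foxi4.1* and 0.244 for *foxi4.2*.

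AC and VG explants were compared to place the 3 genes in the embryo. All 3 were higher in AC than in VG under both solvents. In VG DMSO, *foxi1* had no count in either library, *foxi4.1* had 0 and 1 counts, and *foxi4.2* stood at 44.6 and 25.5 TPM. No AC library of the controls overlapped a VG library for any of them. How common such a separation of 2 against 2 libraries is among all genes was not counted. With DMSO all 3 genes were called higher in AC, that is, at a fold above 2 and with edgeR's quasi-likelihood p below 0.05 after Benjamini-Hochberg adjustment, and 9.67% of the 15232 genes tested were called higher. *foxi1* was 549.8-fold above the floor in AC, from 2375 counts against a floor of 3 counts over both VG libraries, with a lower 95% counting limit of 446.8-fold. *foxi4.1* had 714 counts in AC and 1 in VG, a ratio of 496 after scaling to library size, with a 95% counting interval of 88.7 to 19610. *foxi4.2* was 34.7-fold higher (log2 fold change 5.12 ± 0.37 SE, edgeR adjusted p = 3.37e-04).

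With water all 3 genes were again called higher in AC, beside 6.05% of 15166 genes. In VG water *foxi1* was at 0.32 and 0 TPM, *foxi4.1* at 0.10 and 0.22 TPM and *foxi4.2* at 82.3 and 49.9 TPM, all below the AC water values. The log2 fold changes of AC over VG were 9.23 ± 1.66 (SE) for *foxi1*, 5.49 ± 1.302 for *foxi4.1* and 3.95 ± 0.52 for *foxi4.2*, with edgeR adjusted p values of 0.0102, 0.0274 and 0.00312. The call of *foxi4.1* was lost without replicate 2 of AC water (adjusted p up to 0.138 over the libraries left out) or without either VG water library, and that of *foxi1* without replicate 2 of VG water (adjusted p = 0.0584). *foxi4.2* was called higher in AC than in VG under each omission of a library, with water here and with DMSO in the TSA experiment.

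TSA lowered the foxi4 genes in AC. *foxi4.1* went from 211 and 503 counts (9.51 and 11.7 TPM) with DMSO to 2 and 5 counts (0.10 and 0.13 TPM) with TSA. The ranges lie far apart, and the TSA libraries are within the range seen in VG. The log2 fold change was −6.64 ± 1.05 (SE, n = 2 and 2), with an edgeR adjusted p of 0.0294, and only 5 of the 15232 genes tested had a lower fold change. *foxi4.2* went from 1204 and 792 TPM to 295 and 177 TPM, again without overlap. Its log2 fold change was −2.18 ± 0.33, or 4.54-fold lower, with an edgeR adjusted p of 0.0275.

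*foxi1* had a fold change close to that of *foxi4.2* but did not pass the test, which had no block for replicate number. It was at 66.7 and 31.3 TPM with DMSO and 19.8 and 8.50 TPM with TSA. Both TSA libraries lie below both DMSO libraries. The log2 fold change was −1.90 ± 0.52 (95% interval −3.17 to −0.62), with an edgeR unadjusted p of 0.0110 and an adjusted p of 0.160. TSA was 0.297 of DMSO between the libraries numbered 1 and 0.272 between those numbered 2. Of the 3 genes 2 were thus called lower, where 1.00% of all genes tested were called lower and 1.29% higher. DESeq2 called all 3, limma on log2(TPM + 1) called 2 and limma on log2(TPM + 0.1) called 1. Among all genes, 0 to 951 were called over the tools and settings that kept every replicate. With a block for replicate number within each tissue, chosen after seeing the data, edgeR also called *foxi1* (−1.91, adjusted p = 5.49e-04). The calls of *foxi4.1* and *foxi4.2* rest on few libraries: each was lost when any 1 of the 4 AC libraries was left out (adjusted p up to 0.163 and 0.130), or any VG DMSO library for *foxi4.1* and any VG TSA library for *foxi4.2*. Without the 2 AC libraries rich in ribosomal RNA the log2 fold changes were −6.77 and −2.16, with adjusted p values of 0.351 and 0.241 and 2 genes called in all, and the single AC library of each group was then assumed to vary like the VG libraries.

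**Figure D2:**
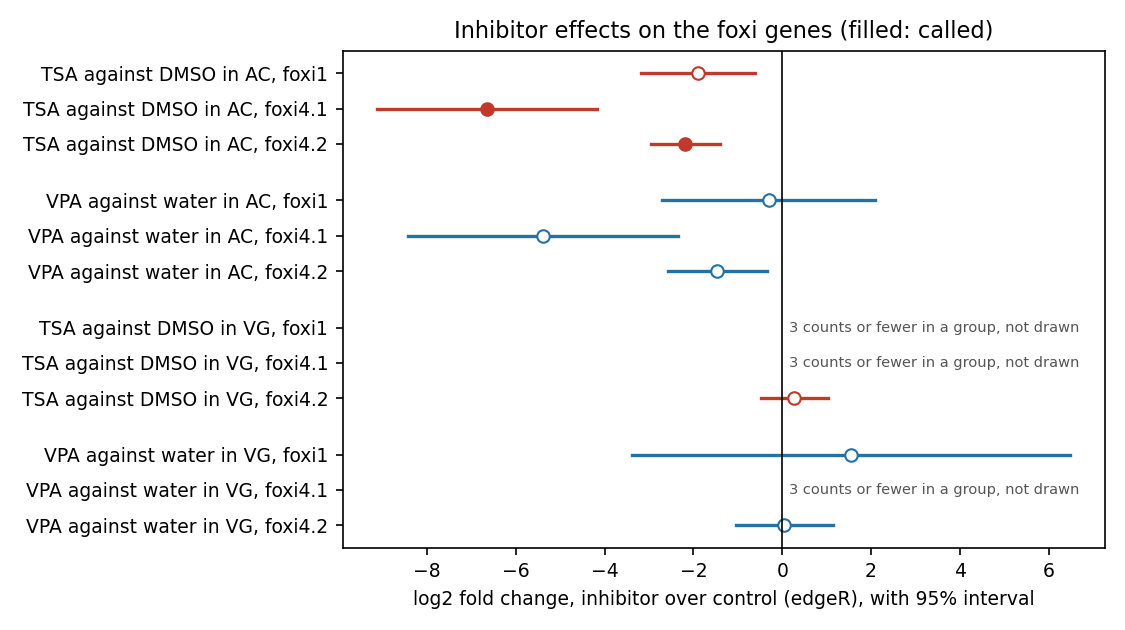
Log2 fold change of inhibitor over control on the horizontal axis for each foxi gene and comparison, with 95% intervals from the edgeR fit (n = 2 libraries per group); red is TSA, blue is VPA, filled points were called and open points were not. The intervals of all 3 genes lie below 0 with TSA in AC, those of *foxi4.1* and *foxi4.2* also with VPA, and the interval of *foxi1* with VPA runs from −2.71 to 2.098.

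VPA gave lower levels of *foxi4.1* and *foxi4.2* in AC that did not pass the test, and no clear shift of *foxi1*. *foxi4.1* was at 63 and 291 counts with water (2.79 and 12 TPM) and at 9 and 1 counts with VPA (0.32 and 0.03 TPM). The groups do not overlap, although each spans a wide range. The log2 fold change was −5.39 ± 1.28 (SE), with an edgeR adjusted p of 0.0916. It ranged from −7.76 without replicate 1 of AC VPA to −4.05 without replicate 2 of AC water, with −4.48 without replicate 2 of AC VPA and −6.06 without replicate 1 of AC water. *foxi4.2* was at 1029 and 926 TPM with water and 420 and 394 TPM with VPA, a tight separation, with a log2 fold change of −1.46 ± 0.47 and an edgeR adjusted p of 0.177. The study differs here, as it lists *foxi4.2* among germ-layer genes lowered in AC by both TSA and VPA. Its calls came from edgeR at a fold above 2 and a false discovery rate under 0.05. Why the VPA calls differ was not tested. *foxi1* was at 138 and 39.4 TPM with water and 145 and 25.7 TPM with VPA, and these ranges overlap. Its log2 fold change was −0.30 ± 1.01, with a 95% interval of −2.71 to 2.098. That interval, from the fit without a block for replicate number, does not exclude a change of the size seen with TSA. Between libraries of the same number, however, VPA was 1.05 of water for number 1 and 0.652 for number 2. The same ratios of TSA to DMSO were 0.297 and 0.272.

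None of the 3 genes was called in the VPA comparison of AC by the main edgeR fit, which has no block for replicate number. Of all genes, 0.745% were called lower and 1.36% higher. Without the filter on low counts, or with all 16 libraries in 1 fit, edgeR without a block called *foxi4.1* (adjusted p = 0.0294 and 0.0369). Fits with such a block also moved calls and are given in the closing section. At an unadjusted p under 0.05, 2 of the 3 genes passed in edgeR, and DESeq2 called the same number, while limma on log2(TPM + 1) and on log2(TPM + 0.1) called 1. Among all genes, 3 to 996 were called over the tools and settings that kept every replicate. The share of all genes at an unadjusted p was not counted. The TSA and VPA values share neither libraries nor controls, but the difference between the inhibitors was not tested, since they were run as separate experiments.

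In VG no foxi gene passed the test with either inhibitor, and *foxi1* and *foxi4.1* had few counts or none. *foxi4.2* was at 44.6 and 25.5 TPM with DMSO and at 47.6 and 39.2 TPM with TSA, and at 82.3 and 49.9 TPM with water and 108 and 41.8 TPM with VPA. Both pairs of ranges overlap, with log2 fold changes of 0.28 ± 0.32 and 0.05 ± 0.46 (SE). *foxi1* had no count with DMSO and 2 and 6 counts with TSA, 2.90-fold above the floor of 3 counts over both DMSO libraries, and 1.86-fold higher at the lower limit of a 95% counting interval. With VPA *foxi1* had 19 and 2 counts against 6 and 0 with water, which overlap. *foxi4.1* had 1 count with DMSO and 3 with TSA over both libraries, too few for a fold, and 8 with water and 3 with VPA, a ratio of 0.315 after scaling to library size, with a counting interval of 0.0538 to 1.31.

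edgeR called none of the 3 genes in VG with TSA, where 0% of genes were called higher and 0.0131% lower, or with VPA, where 0% were called in either direction. At an unadjusted p under 0.05, 1 gene (*foxi1*) passed with TSA and 0 with VPA, and DESeq2 and limma called 0 in both. How many of all genes passed at that unadjusted p was not counted. The interaction of TSA with tissue tested whether its effect in AC differed from that in VG. It was −2.46 ± 0.45 (SE) on the log2 scale for *foxi4.2*, with an edgeR unadjusted p of 0.00102 and an adjusted p of 0.210. By the edgeR adjusted p, 0 of the 3 genes passed, where 0.0328% of genes passed with a lower and 0.0525% with a higher effect in AC. All 3 passed at an unadjusted p under 0.05 and by DESeq2, and 1 (*foxi4.1*) passed by limma on log2(TPM + 1) and 0 on log2(TPM + 0.1). In VG *foxi4.1* had 1 count with DMSO and 3 with TSA, too few for a fold, so the size of its difference between tissues is not estimated. Among all genes, 3 to 230 passed over the tools and settings that kept every replicate. The share of all genes at an unadjusted p was not counted. For VPA, 0 of 3 passed by edgeR at either level, by DESeq2 or by limma, with 0.00659% of genes lower and 0% higher.

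After treatment the AC still differed from VG for 2 of the 3 genes. With TSA, *foxi1* and *foxi4.2* were called higher in AC than in VG (log2 fold changes 5.73 ± 0.69 and 2.66 ± 0.33 SE, edgeR adjusted p 0.00327 and 0.00240), beside 9.88% of genes. With VPA the same 2 genes were called (7.37 ± 1.44 and 2.44 ± 0.48, edgeR adjusted p 0.0164 and 0.0171), beside 5.26% of genes. Each VPA call was lost without some library: that of *foxi1* without either VG VPA library (adjusted p up to 0.0752) and that of *foxi4.2* without either AC VPA library (adjusted p up to 0.0653). *foxi4.1* was not called with either inhibitor. It had 7 counts in AC and 3 in VG with TSA, a ratio of 1.43 after scaling to library size, with a counting interval of 0.326 to 8.57, and 10 against 3 with VPA, a ratio of 3.17 with an interval of 0.817 to 17.9.

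The maternal activator *foxi2*, which is not one of the 3 genes, did not change past the threshold in treated AC. It was at 256 and 159 TPM in AC DMSO and 276 and 176 TPM in AC TSA, with a log2 fold change of 0.03 ± 0.21 (SE, edgeR adjusted p = 1). With VPA it was at 185 and 129 TPM against 165 and 218 TPM with water (−0.47 ± 0.20, edgeR adjusted p = 0.317). It was called higher in AC than in VG under DMSO, 2.63-fold. A list of *foxi2*, further maternal factors and genes of the BMP pathway, which patterns ventral ectoderm, held 20 genes, of which 17 were tested. It was chosen with earlier results of these data known, and the study lists *bambi* as lowered in AC. With TSA in AC, 3 fell and 0 rose, where 1.00% of all genes fell and 1.29% rose, and the median log2 fold change was −0.78 against 0.00 over all genes. The 3 are *szl*, a secreted inhibitor in the BMP feedback loop (−5.64 ± 0.37 SE, edgeR adjusted p = 0.00498), *bambi*, a decoy receptor (−3.00 ± 0.23, adjusted p = 0.00571), and *smad7*, an inhibitory Smad (−2.48 ± 0.28, adjusted p = 0.0130). All 3 are inhibitors or feedback genes of the pathway. *id3*, a BMP target, had −1.27 ± 0.25 (adjusted p = 0.0589). With VPA, 2 of the 17 fell and 0 rose, where 0.745% of all genes fell and 1.36% rose, with a median of −0.47.

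Of 25 regulators of ectoderm, 24 were tested. The study lists *tfap2a*, *dlx5*, *irx2* and *hes4* among them as lowered in AC. As the list was chosen with such results known, its counts are no independent check. With TSA in AC, 12 of them fell and 0 rose, against 1.00% and 1.29% of all genes, with a median log2 fold change of −1.998. Those with the smallest adjusted p were *gata2* (−6.21 ± 0.29 SE, edgeR adjusted p = 0.00111), *ventx1.1* (−6.58 ± 0.40, 0.00445), *ventx1.2* (−6.29 ± 0.46, 0.00571) and *dlx3* (−7.29 ± 0.56, 0.0131), all known in ventral or non-neural ectoderm. With VPA, 10 fell and 0 rose, against 0.745% and 1.36% of all genes, with a median of −1.49. Among the genes that the study lists, *tfap2a* and *irx2* were called lower with both inhibitors, *dlx5* with VPA only and *hes4* with neither. The edgeR adjusted p with TSA was 0.0678 for *dlx5* and 0.140 for *hes4*, and that of *hes4* with VPA was 0.0889. Under DMSO, 15 of the 24 were higher in AC than in VG and 3 lower, against 9.67% and 12.1% of all genes, so that not every gene on the list marks the animal side at this stage. Of those named above, *ventx1.1* and *dlx3* were called higher in AC. *gata2* was called lower (−1.42 ± 0.23 SE, edgeR adjusted p = 0.00607), and *ventx1.2* did not differ past the threshold (−0.24 ± 0.35). Of 26 mesendoderm genes, the kind that foxi1 is known to hold back in animal cells, 7 rose and 1 fell with TSA in AC, against 1.29% and 1.00% of all genes, with a median of 1.89. This list too was chosen with results known, and the study lists its members *hhex*, *osr1* and *snai1* as raised in AC. *sox17a*, an endoderm regulator, rose 34.9-fold (5.12 ± 0.22 SE, edgeR adjusted p = 0.00111), from 3.30 and 2.59 TPM to 136 and 85.8 TPM, which stayed below the 1345 and 1369 TPM of VG DMSO. With VPA, 3 rose and 0 fell, against 1.36% and 0.745% of all genes. Under DMSO 24 of the 26 were lower in AC than in VG, where 12.1% of all genes were called lower.

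Of 16 ionocyte genes, 15 were in the files and only 8 passed the filter on low counts in the TSA experiment and 9 in the VPA experiment. Under DMSO 2 of the 8 were called higher in AC than in VG and 4 lower, against 9.67% and 12.1% of all genes, so the list does not mark AC. In AC with TSA, *dmrt2* rose (4.99 ± 0.53 SE, edgeR adjusted p = 0.0103) and 0 fell, against 1.29% and 1.00% of all genes. *ubp1*, a transcription factor active in ionocytes, had −3.90 ± 0.99 with TSA (adjusted p = 0.115) and fell with VPA (−3.58 ± 0.59, adjusted p = 0.0384). It was the only one called with VPA in AC, where 0.745% of all genes fell and 1.36% rose. *dmrt2* is better known from muscle progenitors and left-right patterning.

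The genes whose pattern was most like each foxi gene were found by Pearson's r of log2(TPM + 1) over the 16 libraries, among 13344 genes with a mean of at least 1 TPM. These libraries share tissue and treatment, so r describes them and carries no test. For *foxi4.2* the closest 5 were *rnf222* (r = 0.977), *dyrk2* (0.973), *klf5* (0.973), *sox15* (0.970) and *grhl3* (0.969), the last a regulator of epidermal differentiation with a mean of 198 TPM over the 8 AC libraries and 4.31 TPM over the 8 VG libraries. For *foxi4.1* they were *zc3h12c* (0.968), *dlx3* (0.960), *styk1* (0.9497), *kalrn* (0.931) and *sertad4* (0.922). *dlx3* was likewise near 0 in treated AC, going from 39.3 and 44.2 TPM with DMSO to 0.44 and 0.17 TPM with TSA, and from 15.6 and 11.8 TPM with water to 0.66 and 0.20 TPM with VPA. For *foxi1* they were LOC100487973 (0.968), *sptssb* (0.968), LOC100485898 (0.965), *cers2* (0.961) and *abhd17c* (0.960). *sptssb* and *cers2* encode a subunit of serine palmitoyltransferase and a ceramide synthase, both of sphingolipid synthesis. Over the 8 AC libraries alone r was 0.883 for *sptssb* and 0.665 for *cers2*. Among the foxi genes themselves, r over the 8 AC libraries was 0.85 for *foxi4.1* with *foxi4.2*, 0.65 for *foxi1* with *foxi4.2* and 0.27 for *foxi1* with *foxi4.1*.

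Peaks within 10 kb of each gene span were counted in the 13 lists to see where HDACs, Sox3 and acetylated H3 were found around these genes. Sox3 is a maternal and ectodermal transcription factor of the SoxB1 group. *foxi4.2* lay among many more peaks than most genes. Hdac1 in untreated embryos had 3, 7 and 10 peaks there at the 3 successive stages, numbers reached by 0.170%, 0.0869% and 0.466% of the 28773 annotated genes on chromosomes. Sox3 had 7 peaks at st9, reached by 0.560% of genes. *foxi1* had 1, 3 and 3 Hdac1 peaks, against shares of genes of 4.64%, 1.68% and 11.9%, and 3 Sox3 peaks (6.11%). *foxi4.1* had 2, 1 and 3 Hdac1 peaks (0.695%, 13.3% and 11.9% of genes) and 1 Sox3 peak (32.3%), so that apart from st8 its counts were common ones. The windows of the foxi4 genes overlap, and the Sox3 peak of *foxi4.1* is one of the 7 of *foxi4.2*. Its Hdac1 peaks are likewise all counted for *foxi4.2* too, except the st10.5 peak at chr1:18330384-18331063. The lists hold no value per replicate other than for Sox3, so these counts carry no replicate error and the depth behind them is unknown.

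**Figure D3:**
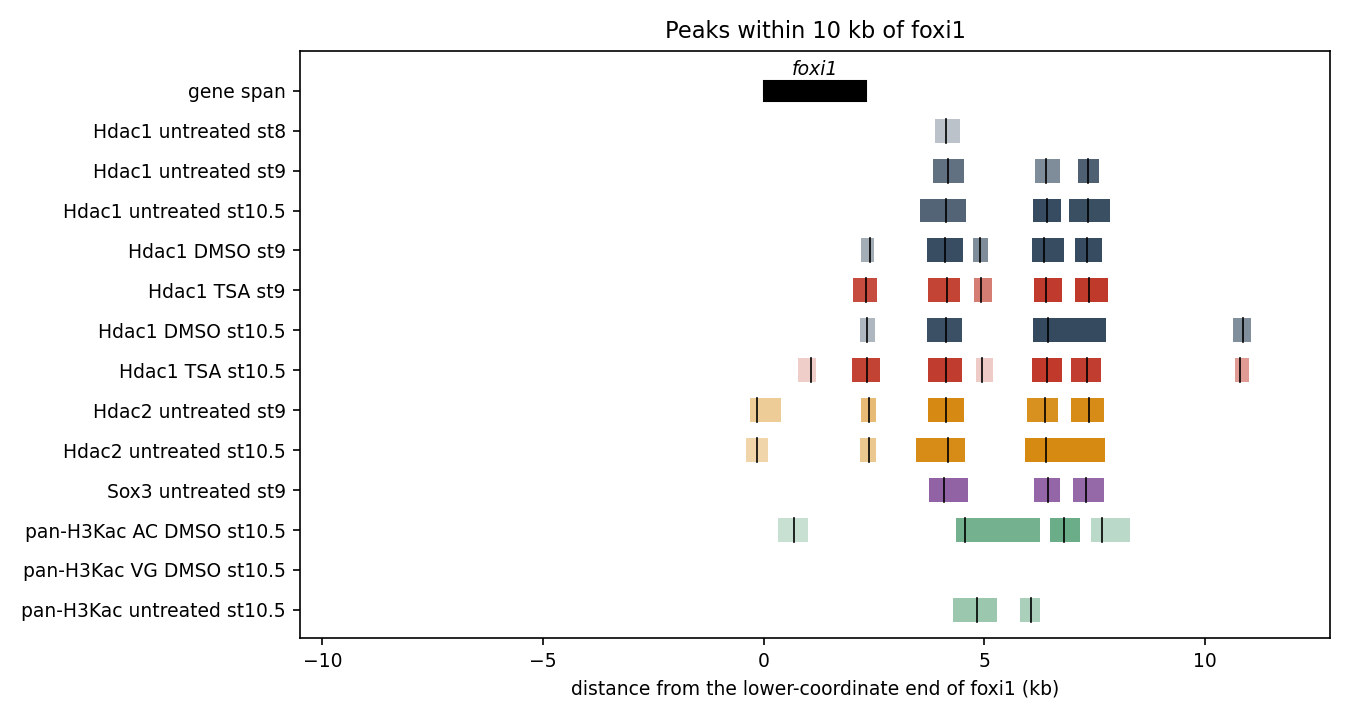
Peaks within 10 kb of *foxi1* in each of the 13 lists (rows), against the distance in kb from the lower-coordinate end of the gene; black ticks are summits, and deeper colour marks a higher percentile of the peak's fold enrichment (score for Sox3) in its own list. Peaks of Hdac1, Hdac2 and Sox3 line up at 3 sites beyond the higher-coordinate end, pan-H3Kac peaks of AC lie between and around them, and the VG row is empty.

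Around *foxi1*, the summits of Hdac1, Hdac2 and Sox3 fell on 8 sites, of which 3 carried Sox3. These 3 lie 1799, 4078 and 5023 bp beyond the higher-coordinate end of the gene, with median summits at positions 32481924, 32484203 and 32485148 of chromosome 3. The nearest of them had a summit in all 10 lists of the 3 factors, including Hdac1 at st8 (fold enrichment over input 5.60), with folds of 7.80 at st9 and 7.91 at st10.5 in untreated embryos. The site at 4078 bp was absent from the st8 list and had a fold enrichment of 6.62 at st9 and 12.7 at st10.5. The site at 5023 bp had 9.29 and 11.5 at these stages. Fold enrichments of different libraries were not scaled to each other, so these steps are given as listed. Sox3 scores in its replicates were 39.4 and 37.8, 27.9 and 34.9, and 26.5 and 31.0 at the 3 sites, all in the upper 10% of the Sox3 list. Hdac2 at st9 had folds of 14.2, 9.17 and 11.3.

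**Figure D4:**
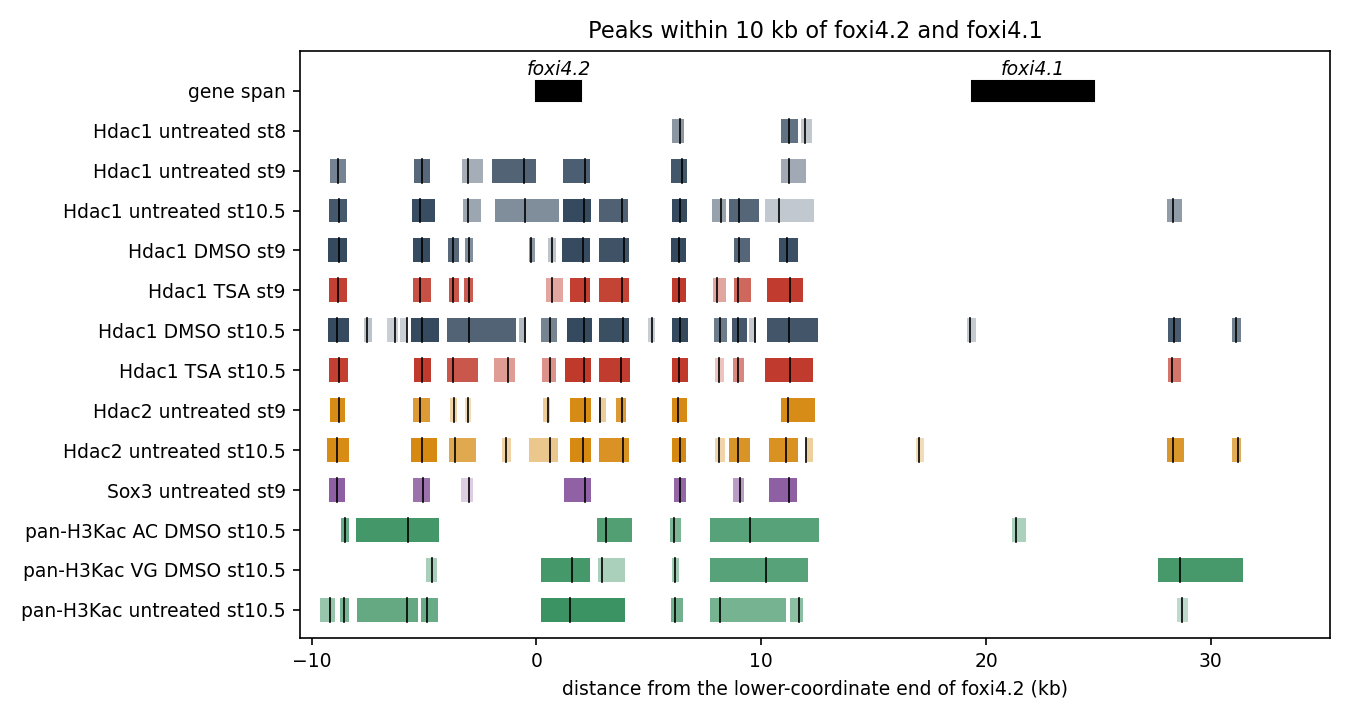
Peaks within 10 kb of *foxi4.2* and *foxi4.1* in each of the 13 lists (rows), against the distance in kb from the lower-coordinate end of *foxi4.2*; ticks are summits and deeper colour marks a higher percentile in the list. Summits of Hdac1, Hdac2 and Sox3 repeat at the same positions on both sides of *foxi4.2*, few peaks lie near *foxi4.1*, and a wide pan-H3Kac peak beyond *foxi4.1* is in the VG list and not in the AC list.

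Around the foxi4 genes the factor summits fell on 26 sites, 19 nearer to *foxi4.2* and 7 nearer to *foxi4.1*. At 10 sites near *foxi4.2*, summits of 5 or more of the 10 factor lists coincided, against 1 near *foxi4.1*. The site 4397 bp beyond the higher-coordinate end of *foxi4.2* was in all 10 lists, with Hdac1 folds of 6.51, 10.6 and 15.1 in the untreated embryos of successive stages and Sox3 replicate scores of 32.1 and 32.2. A site 152 bp beyond the same end had Hdac1 folds of 9.47 and 16.7 at st9 and st10.5 and Sox3 scores of 43.5 and 41.6. On the other side, sites at 5088 and 8829 bp had st10.5 Hdac1 folds of 12.3 and 9.21. The highest Sox3 score at either locus (119, replicate scores 61.4 and 58.0, above 99.6% of the list) lay between the foxi4 genes, 9261 bp from *foxi4.2* and 8149 bp from *foxi4.1* at its own summit. Hdac1 was at this site at st8 with a fold of 7.21. Every Sox3 peak near the 3 genes shared its site with a summit of Hdac1 in at least 1 of the 7 Hdac1 lists. These lists hold up to 74097 peaks, and how common such a match is among all Sox3 peaks was not counted.

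Histone acetylation differed between the lists of AC and VG explants. *foxi1* had 4 pan-H3Kac peaks within 10 kb in AC and 0 in VG, a pattern of peaks in AC and none in VG that 10.4% of annotated genes showed. The 4 peaks in AC had folds of 2.82 to 6.30, and the one inside the gene span (chr3:32478113-32478794, fold 2.82) was in the lowest 1.52% of the AC list. *foxi4.2* had 5 peaks in each tissue, and the wide one between the foxi4 genes was in both (fold 8.62 in AC, chr1:18310068-18314919, and 7.56 in VG, chr1:18310081-18314427). The wide peak on the lower-coordinate side was in AC (chr1:18294322-18298018, fold 12.4), where VG held only a narrow peak (fold 3.97). Over the *foxi4.2* gene itself the VG list held a peak (chr1:18302546-18304743, fold 10.1) that covered 1785 bp of the 1988 bp span, and the AC list held none, although *foxi4.2* RNA was 34.7-fold higher in AC. A peak over the span in VG and none in AC was found for 6.87% of genes. Whole embryos had a peak there with a fold of 18.6 (chr1:18302538-18306294). Absence from a list does not show absence of the mark. *foxi4.1* had a peak inside its span in AC (chr1:18323495-18324104, fold 3.67) and a wide peak beyond its higher-coordinate end in VG (chr1:18329998-18333793, fold 9.73).

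Hdac1 was also precipitated from DMSO- and TSA-treated whole embryos, with 1 library for each treatment and stage, so these values have no replicate check. The study compared its Hdac1 peaks between these treatments and found hardly any that differed at either stage. It proposes that TSA leaves the recruitment of Hdac1 unaltered. Near *foxi4.2* at st9, 9 sites had a peak in both lists, and at 7 of them the fold enrichment was lower with TSA, where 72.1% of all 25924 peaks matched between the lists were lower. Ratios of TSA to DMSO were lowest 5088 bp (21.3 with DMSO, 6.63 with TSA) and 8829 bp (27.2 and 9.59) beyond the lower-coordinate end. These ratios, 0.311 and 0.352, were in the lowest 0.204% and 0.606% of all matched peaks. The median ratio was 0.608 for the 1525 strong matched peaks, those with a DMSO fold of 15 or more, and 0.831 for all. Strong peaks were picked by the DMSO fold, the denominator of the ratio, and such a choice can by itself lower the ratio. The site at 4397 bp had 33.7 and 21.7, a ratio of 0.643. At st10.5 these named sites had ratios of 0.600 (5088 bp), 0.553 (8829 bp) and 0.871 (4397 bp), against a median of 0.922 over all 38895 matched peaks and 0.669 for the strong ones. Of the 8 sites near *foxi4.2* in both st10.5 lists, 7 were lower with TSA, where 58% of all matched peaks were. The lowest ratio was 0.402, at the site 7002 bp beyond the higher-coordinate end (11.7 with DMSO, 4.70 with TSA). A further 7 sites had a summit with DMSO only and 2 with TSA only, some of them inside a wider peak of the other list.

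Near *foxi1* the sites behaved differently from each other. At the site 1799 bp away, the folds with DMSO and TSA were 16.6 and 8.95 at st9 and 15.97 and 17.1 at st10.5. At 4078 bp they were 17.7 and 14.3, then 27.9 and 26.9. At 5023 bp they were 17.1 and 17.98 at st9, and at st10.5 this site was covered with DMSO by the wide peak of the site at 4078 bp (1670 bp across) and had its own peak with TSA (15.3). A weak site at the higher-coordinate end of the gene, 43 bp outside it, had a higher fold with TSA at both stages, 4.41 and 7.23 at st9 and 3.81 and 11.97 at st10.5. The ratios, 1.64 and 3.14, were at or above 97.9% and 99.8% of all matched peaks. The DMSO folds of this site were low in their lists (percentiles 26.8 and 19.3), and a low denominator can by itself raise the ratio. A comparison with weak peaks alone was not made. Near *foxi4.1*, the site 8182 bp away had 13.4 and 11.9 at st9 and 12.6 and 20.7 at st10.5. The other *foxi4.1* site matched at st10.5, 3513 bp beyond its higher-coordinate end, went the opposite way, from 9.94 to 5.41, and 2 more sites had a peak in the DMSO list only.

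**Figure D5:**
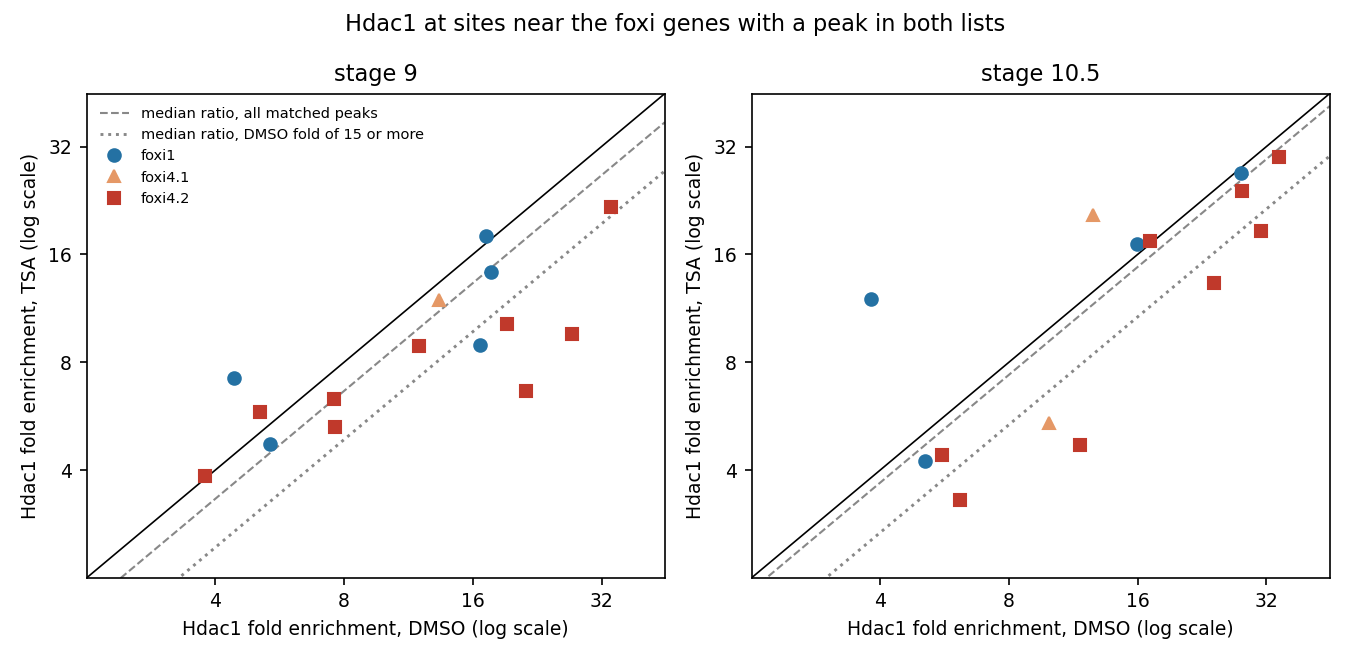
Hdac1 fold enrichment with TSA (vertical axis) against DMSO (horizontal axis), both on log scales, at sites near the foxi genes with a peak in both lists, at st9 (left) and st10.5 (right); each point is 1 site from single libraries, the solid line marks equal folds, and broken lines the median ratio over all matched peaks and over those with a DMSO fold of 15 or more. Sites near *foxi4.2* lie below the solid line at 7 of 9 sites at st9, where 72.1% of all matched peaks do, and the *foxi1* site at the gene's end lies above it at both stages.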

How the data were processed

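RNA (poly-A selected) was mapped by the authors with STAR 2.7.3a to genome v10.0 of *X. tropicalis*, and the deposited expected counts and TPM per gene are from RSEM 1.3.3. The fold enrichment (ratio over input) and −log10 q of the peaks were written by the authors' MACS2 2.7.1 after Bowtie2 2.4.4. The authors kept Hdac1 peaks of untreated embryos at an IDR of 0.05 between replicates and pan-H3Kac peaks found in both replicates. Hdac2 peaks and those of DMSO- or TSA-treated embryos are from 1 library each. The deposited Sox3 list holds a score that is the sum of the scores of its replicates.

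Expected counts were rounded and fitted with edgeR 4.0.16 (R 4.3.3) per experiment of 8 libraries, with a mean for each of 4 groups, TMM, filterByExpr, the quasi-likelihood test and no block. A call needed a fold above 2 and p below 0.05 after Benjamini-Hochberg adjustment, and an interaction needed only the latter. The SE is the log2 fold change divided by the root of F. In a simulation of the TSA comparison in AC, over 12996 genes, 98 of 100 genes with a log2 fold of 1.5 were recovered. Its counts were given a smaller spread than the real libraries, whose common biological coefficient of variation was 0.404. The simulation thus checks the fit and does not measure the power to call the foxi genes. Groups with 0 counts were set against a floor of 3 counts over the group. Intervals on ratios of counts are exact and cover counting error only.

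Peaks were assigned within 10 kb of the RefSeq gene span, and summits within 250 bp of a neighbour were joined into sites. Genes named are the 3 members, the 5 genes most like each over the 16 libraries, *foxi2* and up to 4 of each list with the smallest adjusted p with TSA in AC. The members and lists were chosen with earlier results of these data known. Gene names were taken from the files, and of 28850 genes 26531 matched a RefSeq symbol. Alternatives were DESeq2 1.42.0, limma 3.58.1, other normalizations, filters and sets of libraries, a replicate block, other distances and peak thresholds.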

Additional observations from a re-analysis of the deposited data

Results flagged for a closer look

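For *foxi4.2* and *foxi1*, all TSA libraries lay below the DMSO mean in AC and above it in VG. How many of all genes meet this rule was not counted. The DMSO mean of *foxi1* in VG was 0, so any count in each TSA library meets its VG part. The difference of the TSA effect between the tissues was −2.46 ± 0.45 (SE) on the log2 scale for *foxi4.2* (edgeR adjusted p = 0.210) and −7.34 ± 1.63 for *foxi1* (edgeR adjusted p = 0.360). Neither passed after adjustment in edgeR without a block, and both passed with DESeq2 (adjusted p = 6.01e-05 and 0.0115) and with a block within each tissue (adjusted p = 0.00193 and 0.0180). The value of *foxi1* depends on the prior count of the fit, since VG DMSO held no count of it and VG TSA held 8 in all, and the TSA and DMSO ranges of *foxi4.2* overlap in VG.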

How the results depend on the processing

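The AC-enriched pattern of the 3 genes under DMSO was called under every alternative in which the gene passed the filter, the lower *foxi4.1* and *foxi4.2* levels with TSA in AC were not, and the calls lost or gained are given as log2 fold changes with adjusted p. For TSA in AC, fitting only the 4 libraries gave −6.65 (0.0834) for *foxi4.1* and −2.18 (0.130) for *foxi4.2*, limma on log2(TPM + 0.1) gave −2.09 (0.0513) for *foxi4.2*, and DESeq2 gave −1.95 (0.00619) for *foxi1*. Leaving out the 2 libraries rich in ribosomal RNA, an alternative chosen after seeing the data, gave −6.77 (0.351) and −2.16 (0.241). For VPA in AC, *foxi4.1* passed with DESeq2 (−5.41, 2.54e-04), without the filter (−5.39, 0.0294), with all 16 libraries in 1 fit (−5.38, 0.0369) and with limma at a pseudocount of 1 (−2.59, 0.0485) or 0.1 (−4.66, 0.0465), and *foxi4.2* with DESeq2 (−1.48, 0.0169). The difference of the TSA effect between tissues passed with DESeq2 for *foxi1* (−6.53, 0.0115), *foxi4.1* (−8.47, 0.00332) and *foxi4.2* (−2.52, 6.01e-05), and with limma at a pseudocount of 1 for *foxi4.1* (−3.45, 0.0267). In every fit the VG part of the *foxi4.1* difference rests on 1 count with DMSO and 3 with TSA, too few for a fold. Within 5 kb, *foxi4.1* had a peak in 7 lists in place of 13.

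Libraries share replicate numbers 1 and 2, but no shared batch is stated. Deviations from the group means of libraries with the same number had r of 0.461 to 0.631 between groups of the VPA experiment, and in the TSA experiment 0.775 and 0.800 within a tissue and −0.0951 to −0.0509 between tissues. With the replicate block, VPA in AC gave −5.12 (0.0287) for *foxi4.1* and −1.43 (0.0360) for *foxi4.2*, and VPA in VG gave −0.0097 for *foxi4.2*, a change of sign. With a block within each tissue, chosen after seeing the data, *foxi1* with TSA in AC was −1.91 (5.49e-04), *foxi4.2* with VPA −1.45 (0.0143) in AC and −0.057 in VG, *foxi4.1* in AC against VG under water 6.05 (0.0523), and the TSA difference between tissues −7.35 (0.0180), −8.20 (0.0308) and −2.50 (0.00193) for *foxi1*, *foxi4.1* and *foxi4.2*. Why these calls moved was not tested.

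Leaving out each library in turn, TSA in AC ranged from −7.06 to −6.35 for *foxi4.1* and −2.42 to −2.004 for *foxi4.2*, and TSA in VG from −0.091 to 0.77 for *foxi4.2*. VPA ranged from −1.98 to 0.97 in AC and −0.94 to 6.37 in VG for *foxi1*, from −0.84 to 0.59 in VG for *foxi4.2*, and from −7.76 to −4.05 in AC for *foxi4.1*. AC against VG ranged from 7.94 to 14.05 for *foxi1* and 4.16 to 6.29 for *foxi4.1* under water, from −0.52 to 4.58 for *foxi4.1* under TSA, and under VPA from 5.69 to 9.86 for *foxi1*, −0.68 to 5.20 for *foxi4.1* and 1.89 to 3.32 for *foxi4.2*. The VPA difference between tissues of *foxi1* ranged from −6.67 to 0.64.

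The number of genes called overall also moved. It was 350 for TSA in AC (0 to 951 over the other tools, filters, scalings, blocks and sets of libraries that kept every replicate of the groups compared, 31 to 153 when 1 library was left out), 319 for VPA in AC (3 to 996, and 1 to 97), 2 for TSA in VG (0 to 209), 0 for VPA in VG (0 to 365), 13 for the TSA difference between tissues (3 to 230) and 1 for VPA (1 to 122). No VG library held over 19 counts of *foxi1* or *foxi4.1*, so their folds in VG have wide counting intervals.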
